A study of Mus musculus with 6 samples.

Results

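The EGF receptor family was followed in mouse subcutaneous white adipocytes through 10 genes, namely the receptors Egfr, Erbb2 and Erbb3, the neuregulins Nrg1, Nrg2 and Nrg4, and the EGF receptor ligands Hbegf, Areg, Ereg and Btc. The set was chosen by gene family and by its measured difference in these same samples, with Nrg4 lower and Nrg1 and Hbegf higher after miR-182-5p, so the differences of the 10 genes are given as a description and carry no test. All 10 were among the 22609 genes listed. Of these, 7 were among the 13117 genes with enough reads for a fit, and Erbb3, Nrg2 and Areg were not. The main pattern was a split among the ligands: in the samples with miR-182-5p, Nrg4 mRNA was at 0.55 of its control level, while Nrg1 was 1.62-fold and Hbegf 1.79-fold higher, and Egfr, the most abundant member, was at 0.95 of control.

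RNA was sequenced from 6 samples of stromal vascular cells that had been isolated from inguinal fat of male C57BL6 mice, 3 weeks old by the labels, and differentiated in culture. In 3 samples miR-182 was overexpressed, and 3 received a control. The labels name electroporation and a control vector, whereas the study's methods name a synthetic mimic, a lipid reagent and another age, and which holds for these libraries could not be settled. Nothing states that the samples of a group came from separate animals or cultures, so p-values measure only the spread between these samples, which may be technical.

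The libraries held 25869810 to 28796712 reads assigned to genes. No pair of libraries within a group agreed within sampling noise, with chi-square values per degree of freedom of 2.13 to 7.19, so none was treated as a copy. The precursor gene Mir182 was listed at 0 reads in all 6 libraries, which were made from poly-A RNA and do not capture the mature miRNA, so its overexpression could not be checked here. Levels are given as CPM, the reads of a gene per 1000000 gene reads of its library, after scaling for library composition. Of 13 adipocyte markers, 12 exceeded 100 CPM in every sample. Their summed level was 18005 to 19057 CPM in control and 11714 to 13347 CPM with miR-182-5p, a ratio of 0.68, and 10 of the 13 fell and 1 rose by adjusted p. The summed level of 12 progenitor and fibroblast markers was 41094 to 42916 CPM in control and 36151 to 37363 CPM with miR-182-5p, a ratio of 0.88, and most of it came from the collagen genes Col1a1 and Col3a1. Of the 11 of these markers that were fitted, 8 fell and 1 rose by adjusted p, and the 4 past 1.5-fold, Cd34, Pdgfra, Pi16 and Dcn, were all lower. Their median log2 fold change was −0.401, beside −0.459 for the adipocyte markers. Brown or beige adipocyte markers summed to 60 to 65 CPM in control and 48.5 to 50.9 CPM with miR-182-5p. Of the 6 fitted ones, Cox7a1, Cox8b and Prdm16 fell by adjusted p, none by 1.5-fold, and the other 3 did not pass. Ucp1 and Dio2 had too few reads for the fit. Endothelial markers summed to 8.13 to 9.27 CPM in control and 5.09 to 5.74 CPM with miR-182-5p, where Tek (−1.31) was called lower. Mean Tek was 6.05 CPM in control and 2.43 CPM with miR-182-5p. The other 2 fitted endothelial markers did not pass adjusted p, and Kdr was at 1.59 and 2.14 CPM. The sums of macrophage markers (14.6 to 15.7 and 12.4 to 15.8 CPM) and of Schwann cell markers (12.8 to 14.2 and 13 to 15.9 CPM) overlapped between the groups. Of 4 fitted macrophage markers, Lyz2 (−0.63) was called lower and the other 3 did not pass adjusted p. Of 4 fitted Schwann cell markers, 1 was called lower and 1 rose by adjusted p. Epithelial markers reached at most 0.268 CPM in sum, with Krt8, Krt18 and Krt14 at 0 in every sample. In bulk RNA, fewer cells of a type and less RNA per cell cannot be told apart.

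ErbB receptors are membrane tyrosine kinases that pair after binding a ligand with an EGF-like domain. Egfr binds heparin-binding EGF (Hbegf), amphiregulin (Areg), epiregulin (Ereg), betacellulin (Btc), EGF and TGF-alpha, whereas the neuregulins bind Erbb3 or Erbb4. Erbb2 has no known ligand of its own and acts as a partner, and Erbb3 has little kinase activity and signals through its partner. Most ligands are made as membrane-bound precursors that ADAM proteases release, and signaling runs through the adaptors Shc1 and Grb2 to the RAS and MAPK cascade. Nrg4 is known as a factor secreted by adipose tissue, and miRNAs lower transcripts mainly through pairing of their seed, bases 2 to 8, with the 3′-UTR.

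The mature miR-182-5p of the mouse is shown because its seed, in capitals, defines the sites looked for below. It comes from RefSeq (GRCm38.p6, chr6:30165962-30165986, minus strand). The study's methods print a different sequence under the name of mouse miR-182-5p. Which sequence was overexpressed in these samples could not be settled. All searches used the RefSeq seed, and matches to the seed of the other sequence were not searched.
mmu-miR-182-5p: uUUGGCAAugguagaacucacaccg

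The letters TTGCCAA, the complement of the seed, were searched on the sense strand in the longest annotated 3′-UTR of each gene (GENCODE M21, GRCm38), and so were TGCCAAA, the complement of bases 2 to 7 followed by A. Both overlap in TTGCCAAA. TTGCCAA was present in 12.5% and TGCCAAA in 14.3% of the 12523 tested genes with a 3′-UTR. Of the 10 members, 1 held TTGCCAA, and this was Areg, a ligand with almost no reads here. TGCCAAA was present in Ereg and, with 2 matches, in Hbegf, which was higher with miR-182-5p. Neither string was present in the annotated 3′-UTR of Nrg4 (1394 bases), Nrg1 (3477 bases), Egfr (6303 bases), Erbb2 (1048 bases) or Btc (2069 bases), which says only that these letters are not in these windows. The matches of the Areg and Ereg 3′-UTRs, at bases 32 to 38 and 2853 to 2859, are in capitals below.
Areg: agttgaatcaTTGCCAAgccacaccgg
Ereg: taaatttgccTGCCAAAagatgtcaat

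Egfr and Erbb2 were the receptors with appreciable transcript levels. Egfr was at 244, 238 and 247 CPM in control and at 225, 233 and 235 CPM with miR-182-5p. The 3 samples with miR-182-5p lay below the 3 control samples, by a margin that was small against their level, and the log2 fold change was −0.08 (SE 0.029). Erbb2, the partner without a ligand of its own, was at 29.8, 26.9 and 29.6 CPM in control and at 33.0, 34.5 and 32.1 CPM with miR-182-5p. These groups did not overlap either, and the log2 fold change was 0.21 (SE 0.055), or 1.15-fold. Erbb2 reads per Egfr read were 0.118 ± 0.00495 (SD, n = 3) in control and 0.144 ± 0.00616 with miR-182-5p. Since Erbb2 lay above and Egfr below control in every sample with miR-182-5p, the separation of this ratio follows from those values. Over all genes, 27.3% lay above and 27.5% below in this way, and both receptors belong to a set chosen on these samples.

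Erbb3, a neuregulin receptor, had 7, 4 and 13 reads in control and 10, 6 and 9 reads with miR-182-5p. The groups overlapped, and no difference was detectable at this depth. Erbb4, the receptor that binds Nrg4, was at 0 reads in all 6 libraries. A count of 0 allows up to 3 reads, or 0.104 to 0.116 CPM per library, and this limit covers counting error only. The SD and SE values given here also hold the spread between these samples. Neuregulin receptor transcripts were thus near or under the detection limit in the same libraries that held Nrg4 and Nrg1 transcripts.

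**Figure D1:**
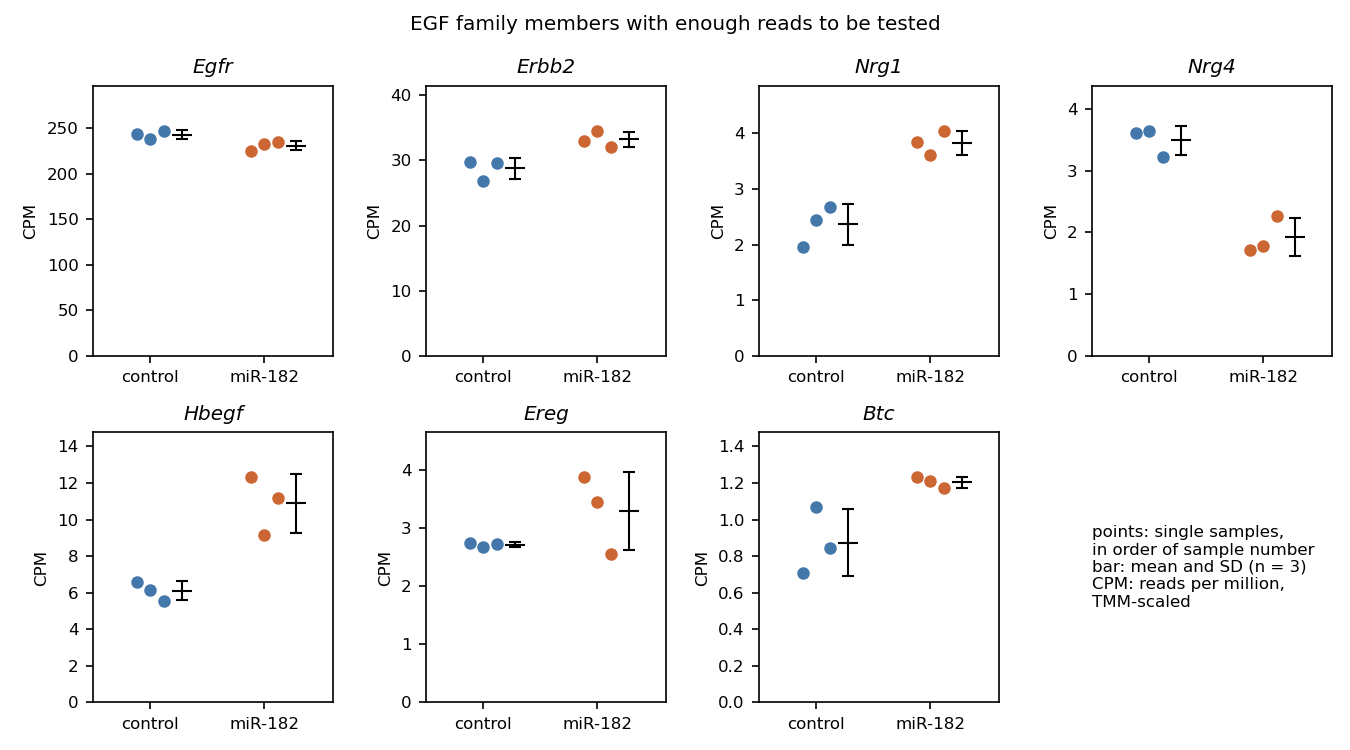
Level of each tested member in CPM (y axis, from 0, a panel per gene) in the 3 control and the 3 miR-182-5p samples, with a point per sample and a bar for the mean and SD. Nrg4 lies lower with miR-182-5p (1.71 to 2.27 against 3.22 to 3.64 CPM), Nrg1 and Hbegf lie higher, and the Ereg groups overlap.

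Among the neuregulins, Nrg4 and Nrg1 differed in opposite directions. Nrg4 had 92, 95 and 84 reads in control and 50, 47 and 64 reads with miR-182-5p, which gave 3.61, 3.64 and 3.22 CPM and 1.71, 1.78 and 2.27 CPM. Every sample with miR-182-5p was below every control sample, and the highest of them, replicate 3, stood nearest to control. The group means were 3.49 ± 0.236 and 1.92 ± 0.302 CPM (SD, n = 3 each), with a log2 fold change of −0.86 (SE 0.15). Leaving out each sample in turn gave −0.99 to −0.78. The sums of adipocyte, progenitor and brown or beige markers given above were also lower with miR-182-5p, and the endothelial sum was lower through Tek. The part of these in the Nrg4 difference was not tested. Exons of Fbxo22 and of a pseudogene on the other strand share 545 of the 6075 exonic bases of Nrg4. The library kit marked strand, but the strand setting of the counting is not given in the sources used here, so a share of the reads could come from those neighbors.

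Nrg1, a ligand of Erbb3 and Erbb4, had 50, 64 and 70 reads in control and 112, 95 and 114 reads with miR-182-5p. In CPM these were 1.96, 2.45 and 2.68 against 3.84, 3.61 and 4.04, and the groups did not overlap. The log2 fold change was 0.69 (SE 0.14), from means of 2.37 ± 0.366 and 3.83 ± 0.216 CPM. It stood close to the fold cutoff used for calls below, since without control replicate 1 it was 0.577, under the cutoff of 0.585 that corresponds to 1.5-fold. A noncoding transcript on the other strand shares 482 of the 10351 exonic bases. Nrg2 had 1 to 6 reads per library in control and 1 to 4 with miR-182-5p, too few to compare.

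Counting Nrg1, Nrg2 and Nrg4 together, the neuregulin transcripts summed to 5.62, 6.32 and 5.94 CPM in control and 5.69, 5.43 and 6.38 CPM with miR-182-5p. The sums overlapped although both main members were apart between the groups. Nrg4 reads per Nrg1 read were 1.84, 1.48 and 1.2 in control and 0.446, 0.495 and 0.561 with miR-182-5p. Nrg4 had the more reads in every control sample and Nrg1 in every sample with miR-182-5p. These ratios are of reads without a length correction, so they are read between samples and not as a ratio of molecules. Their separation follows from the choice of Nrg4 as lower and Nrg1 as higher in these samples.

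Among the EGF receptor ligands, Hbegf was the most abundant and the only member of its group past the fold cutoff. Hbegf had 168, 160 and 145 reads in control and 358, 241 and 315 reads with miR-182-5p. In CPM it was at 6.60, 6.13 and 5.56 against 12.3, 9.15 and 11.2, so that the lowest sample with miR-182-5p, replicate 2, was still above every control sample. The log2 fold change was 0.84 (SE 0.11), and 0.74 to 0.95 with each sample left out in turn. Reads of Hbegf per Nrg4 read were 1.83, 1.68 and 1.73 in control and 7.16, 5.13 and 4.92 with miR-182-5p. Both genes were chosen for moving apart in these samples, so the separation of their ratio follows from that choice.

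**Figure D2:**
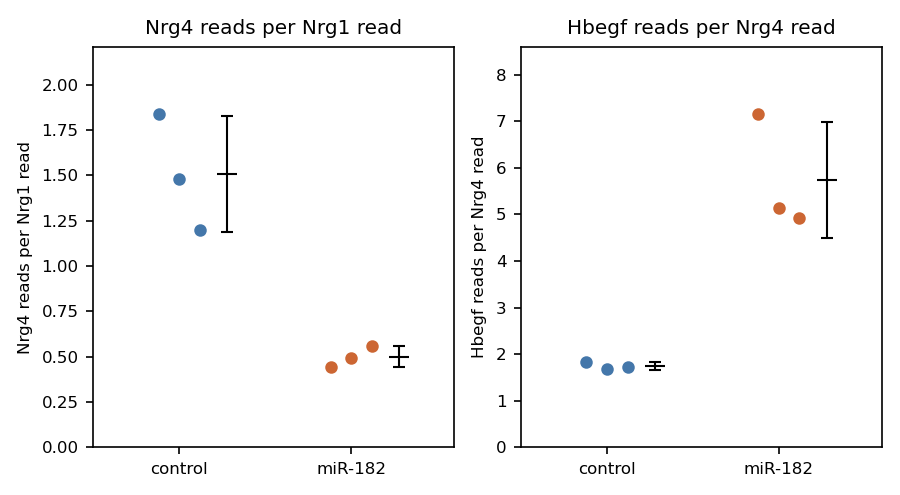
Reads of Nrg4 per Nrg1 read and of Hbegf per Nrg4 read (y axes, from 0, a panel each) for every sample of control and miR-182-5p, with group mean and SD as the bar. In both panels the groups do not overlap, with 1.51 against 0.501 for Nrg4 per Nrg1 and 1.75 against 5.74 for Hbegf per Nrg4. The genes were chosen for moving apart in these samples.

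Ereg and Btc differed less. Ereg had 70, 70 and 71 reads in control and 113, 91 and 72 reads with miR-182-5p, and at 3.87, 3.45 and 2.55 CPM the latter reached below the control samples (2.75, 2.68 and 2.72 CPM). Its log2 fold change of 0.28 (SE 0.16) was 0.14 without miR-182-5p replicate 1 and 0.44 without miR-182-5p replicate 3, so individual libraries set its size. Btc had 18, 28 and 22 reads in control and 36, 32 and 33 reads with miR-182-5p. These groups did not overlap, at 0.874 ± 0.184 and 1.21 ± 0.0331 CPM, and the log2 fold change was 0.46 (SE 0.22). Areg had 1, 1 and 0 reads in control and 0 reads in the 3 samples with miR-182-5p, which is at or under the limit that a count of 0 allows in both groups. In the RefSeq gene order Epgn, Ereg, Areg and Btc follow each other with 0 coding genes between neighbors, yet the levels of these 4 ranged from almost no reads to 113 reads per library. The EGF receptor ligands summed to 10.1, 9.92 and 9.12 CPM in control and 17.4, 13.8 and 14.9 CPM with miR-182-5p, most of it Hbegf.

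**Figure D3:**
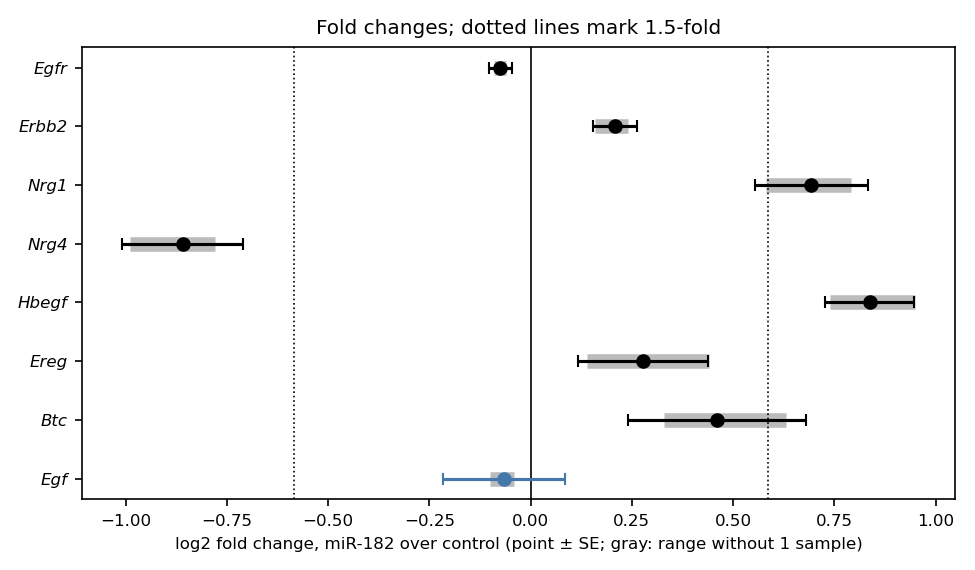
Log2 fold change of miR-182-5p over control (x axis) for the 7 members with enough reads (black) and for Egf (blue), with the SE as the bar, the range over fits without 1 sample as the gray band and dotted lines at 1.5-fold. Nrg4 stands at −0.86, Nrg1 at 0.69 and Hbegf at 0.84, and the points of the other genes lie between the lines.

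Counted over the members, 2 were higher by at least 1.5-fold at an adjusted p under 0.05 (Nrg1 and Hbegf), where 1.97% of the 13117 genes were, and 1 was lower (Nrg4), where 5.48% were. By adjusted p alone 3 were higher (also Erbb2), against 23.2% of all genes, and 2 were lower (also Egfr), against 23.5%. In 4 members (Erbb2, Nrg1, Hbegf and Btc) all samples with miR-182-5p were above all control samples, which held for 27.3% of all genes, and in Egfr and Nrg4 all were below, which held for 27.5%. These counts follow from the contrast that chose the members, and nothing is read from them. The members with a fit had a median log2 fold change of 0.277, beside −0.004 over all genes.

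The other members of the family were mostly absent. Nrg3 was at 0 reads in every library, like Erbb4. Egf, the founding ligand, had 52, 58 and 56 reads in control and 60, 54 and 57 with miR-182-5p, or 2.14 ± 0.0893 and 2.04 ± 0.0195 CPM. Its log2 fold change of −0.07 (SE 0.15) did not pass the quasi-likelihood test of edgeR, adjusted by Benjamini-Hochberg over all genes (adjusted p = 0.752). Tgfa, the ligand TGF-alpha, had 10, 10 and 6 reads in control and 2, 4 and 4 with miR-182-5p. Its groups did not overlap, but the reads were too few for the fit. Epgn (epigen) had 0 to 7 reads per library.

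Per kilobase of exon, the family spanned a wide range of levels. The control means were 21.5 CPM per kb for Egfr, 5.52 for Erbb2, 1.26 for Hbegf, 0.658 for Ereg, 0.574 for Nrg4, 0.229 for Nrg1, 0.193 for Btc and 0.189 for Egf, with lengths from the union of annotated exons. Of these neighbors, Nrg1 (0.190 to 0.259) and Btc (0.156 to 0.237) overlapped between samples, and so did Btc and Egf (0.181 to 0.197). Erbb3 (0.0513), Nrg2 (0.0326) and Areg (0.0213) stood far below, with overlapping sample ranges. With miR-182-5p the order of Nrg4 and Nrg1 was the other way round in the means, at 0.316 and 0.370 CPM per kb, but their sample ranges of 0.282 to 0.373 and 0.348 to 0.390 overlapped. Lengths matter for Nrg4, whose longest transcript is much shorter than its exon union: with that length its level was 1.67 CPM per kb in control, above Ereg at 0.658, and 0.917 with miR-182-5p, above Nrg1 at 0.707. The receptor Egfr stayed well above every ligand by both lengths.

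**Figure D4:**
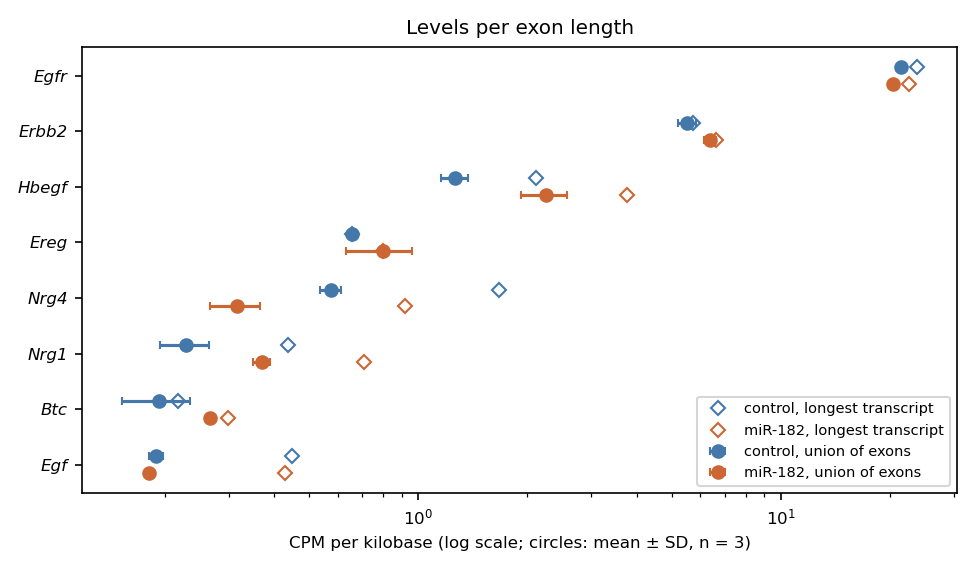
Level of each fitted member and Egf in CPM per kilobase (x axis, log scale) for control and miR-182-5p, with circles and bars for the mean and SD (n = 3) by exon union and open diamonds for the mean by the longest transcript. By exon union the Egfr means are 21.5 and 20.4, the Erbb2 means 5.52 and 6.38, and every ligand mean is at 2.25 or below.

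The machinery around the receptors was described through 4 lists of 95 genes in all, of which 94 were fitted. By the same quasi-likelihood test in edgeR, with Benjamini-Hochberg adjusted p-values throughout, 45 rose and 12 fell, where 23.2% and 23.5% of all 13117 genes did. By at least 1.5-fold, 4 rose and 2 fell, beside 1.97% and 5.48% of all genes. The median log2 fold change of the 94 was 0.091, beside −0.004 over all genes. Read levels of the lists were not matched to those of all genes, here or in the lists below. The part of level in the shares that passed adjusted p was not tested.

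Of the 16 genes for ligand shedding and presentation, 8 rose and 0 fell, none by 1.5-fold (over all genes, 23.2% rose and 23.5% fell by adjusted p). The most abundant were Timp3, an inhibitor of metalloproteases, which rose from 1495 ± 20 to 1731 ± 52.7 CPM (log2 fold change 0.21, adjusted p = 8.02e-05), and Adam9, a metalloprotease, which rose from 426 ± 1.82 to 464 ± 15.5 CPM (0.12, adjusted p = 0.00357). An inhibitor and a protease of the release step thus both rose. Adam17, the main sheddase of Hbegf, Areg and Ereg, was at 86.1 ± 1.76 and 102 ± 2.31 CPM (0.24, adjusted p = 3.13e-05), and Adam10, which releases Btc and Egf, at 137 ± 4.97 and 132 ± 2.06 CPM (−0.05, adjusted p = 0.204). These last were named after their values were seen. Without control replicate 3, Cd44 (0.59) and Bace2 (−0.74) passed both cutoffs, and without miR-182-5p replicate 3, Cd44 did.

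Of the 19 genes for receptor inhibition and turnover, 18 were fitted, and 9 rose and 2 fell, beside the same shares over all genes. Ptpn1, a tyrosine phosphatase that acts on Egfr among other receptors, fell from 61.5, 58.2 and 61.0 CPM to 41.1, 36.7 and 39.6 CPM (log2 fold change −0.62, SE 0.048, adjusted p = 1.54e-07). It was the only gene of the list past 1.5-fold, and without miR-182-5p replicate 2 its log2 fold change of −0.57 was under that cutoff. The other gene that fell was Socs5 (−0.16, adjusted p = 5.2e-04). The feedback inhibitor Errfi1, at 191 ± 2.10 and 211 ± 15.5 CPM (0.14, adjusted p = 0.0135), and the deubiquitinase Usp8 (0.11, adjusted p = 0.00552) rose by little, and Errfi1 did not pass without control replicate 2.

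The 33 adaptors and kinases went both ways, with 12 that rose and 9 that fell, beside 23.2% and 23.5% of all genes. Shc1, the adaptor that binds phosphorylated ErbB receptors, fell from 157, 149 and 149 CPM to 88.4, 85.7 and 85.0 CPM (log2 fold change −0.81, SE 0.033, adjusted p = 1.59e-10). Sos2, an exchange factor that activates RAS, rose from 22.3, 24.3 and 22.9 CPM to 39.6, 39.3 and 38.0 CPM (0.75, SE 0.051, adjusted p = 3.76e-08). Both kept their call with each sample left out. The 2 most abundant genes of the list, the phosphatase Ptpn11 and the transcription factor Stat3, rose by 0.23 each on the log2 scale (adjusted p = 1.01e-05 and 1.11e-05). Grb2, which joins Shc1 to the SOS proteins, was named after its values were seen and fell by 0.39 (adjusted p = 3.03e-06).

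Of the 27 genes of the MAPK response and its feedback, 16 rose and 1 fell, where 23.2% of all genes rose and 23.5% fell. Those past 1.5-fold were the AP-1 genes Fosb (1.35 ± 0.0435 to 2.22 ± 0.190 CPM, log2 fold change 0.71, adjusted p = 0.00277) and Fosl1 (3.43 ± 0.448 to 5.56 ± 0.708 CPM, 0.70, adjusted p = 6.17e-04) and the early response gene Ier3 (37.5 ± 1.83 to 57.6 ± 2.62 CPM, 0.62, adjusted p = 2.07e-07). Ier3 was under the fold cutoff, at 0.58, without control replicate 2 and without miR-182-5p replicate 1. Spry1, a feedback inhibitor just under the cutoff at 0.57, passed it at 0.59 without control replicate 1 or without miR-182-5p replicate 3, and the ephrin receptor Epha4 did at 0.60 without miR-182-5p replicate 2. The most abundant genes, Fosl2 (0.35, adjusted p = 3.93e-07) and Egr1 (0.13, adjusted p = 0.0168), rose by less, and Egr1 did not pass without control replicate 2 or without miR-182-5p replicate 2. The gene that fell was Dusp4, a MAPK phosphatase (103 ± 1.77 to 75.3 ± 1.77 CPM, −0.46, adjusted p = 6.78e-08).

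**Figure D5:**
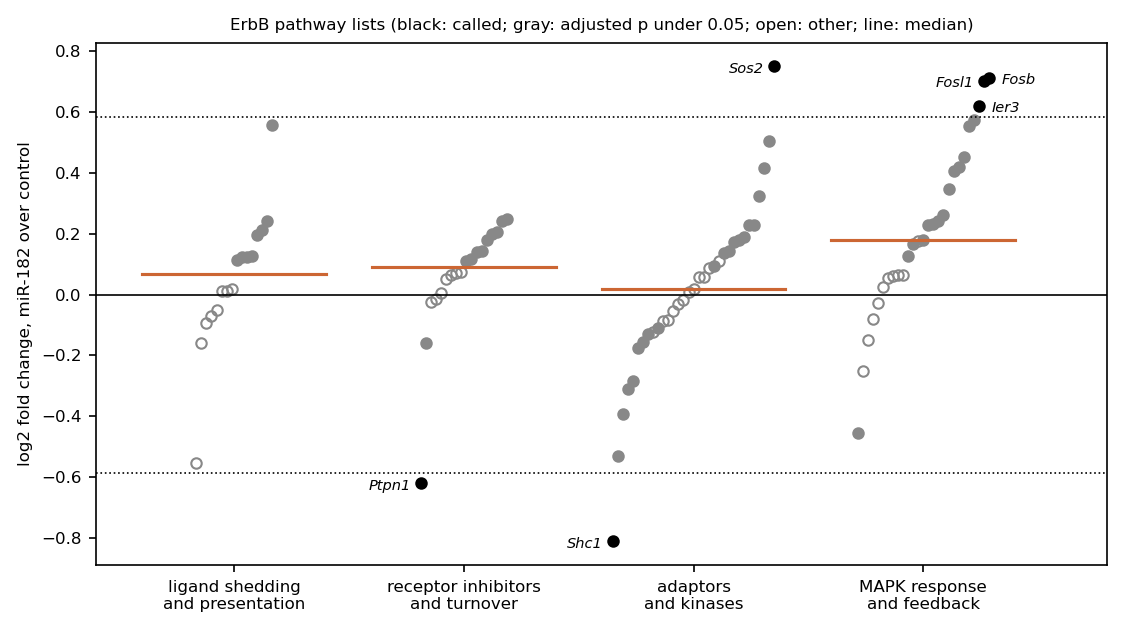
Log2 fold change of miR-182-5p over control (y axis) for each fitted gene of the 4 pathway lists (x axis), with a filled black point for genes past 1.5-fold and adjusted p under 0.05, gray for adjusted p alone, open for the rest, a line at the list median and dotted lines at 1.5-fold. The medians are 0.067, 0.093, 0.018 and 0.180 from left to right, and Shc1 and Ptpn1 lie lowest among the filled points.

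Matches to the seed were also counted in the 3′-UTRs of the pathway genes. TTGCCAA was present in 4 of 16 genes of shedding and presentation, in 3 of 19 of receptor inhibition and turnover, in 8 of 33 adaptors and kinases and in 4 of 27 of the MAPK response. Together 19 of the 95 genes, or 20%, held it, beside 12.5% of the tested genes with a 3′-UTR. The 3′-UTR lengths of these sets were not matched. Of these 19 genes, 8 rose and 1 fell by adjusted p, and the latter is shown because it also holds the longest form of the match, in 2 places. It is Rasa1, which ends RAS signaling, named after its values were seen: 62.2 ± 2.84 CPM in control and 43.1 ± 1.97 CPM with miR-182-5p (log2 fold change −0.53, adjusted p = 6.7e-07), a fall under 1.5-fold. TGCCAAA was present in 22 of the 95 genes, beside 14.3% of the tested genes with a 3′-UTR. Of these 22 genes, 5 fell and 8 rose by adjusted p, where 23.5% and 23.2% of all genes did. Ptpn1 and Grb2 were among those that fell, and Fosl2 (0.35), Eps15 (0.24) and Adam19 (0.11) among those that rose, all but Ptpn1 and Fosl2 named after their values were seen. The 3′-UTRs of Shc1, Sos2 and Dusp4 held neither string. Capitals mark the match, at bases 69 to 75 and 334 to 340 of the Rasa1, 211 to 217 of the Ptpn1, 177 to 183 of the Grb2 and 802 to 808 of the Fosl2 3′-UTR, the last shown as a match in a gene that rose (GENCODE M21, GRCm38). A match is a description of the letters, and binding was not tested.
Rasa1: tcctttgctcTTGCCAAaaagaaaaaa
Rasa1: gtatatccaaTTGCCAAagttttgctg
Ptpn1: gtagaggaaaTGCCAAAtactcttctt
Grb2: gatttcataaTGCCAAAacttaaccta
Fosl2: caggttgggtTTGCCAAacgtctaatt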

How the data were processed

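Poly-A RNA from 6 samples, 3 per group, was sequenced from stranded libraries. The deposited values are the authors' counts of reads for each gene, whole numbers with no normalization. The submitters' processing notes name bcl2fastq, TopHat2, HTSeq and mm9, and their versions, the annotation and the strand setting are not given in the sources used here. Samples were grouped by their GEO titles. From each library 5 tally lines were left out (reads without a gene made up 12.7 to 13.0% and ambiguous reads 0.652 to 0.667%). Genes were kept by edgeR's filterByExpr (minimum count 10), scaled by TMM and fitted across all 13117 genes with edgeR 4.0.16 (R 4.3.3) quasi-likelihood tests on group alone, with Benjamini-Hochberg adjustment. A call needed 1.5-fold and an adjusted p under 0.05. The script was tested on simulated data. Alternatives were DESeq2 size factors, DESeq2 1.42.0, limma-voom (limma 3.58.1), a fit without the filter, a stricter filter (10 counts or more in each sample), a replicate block, no fold cutoff and leaving out each sample.

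The members, the gene lists and the tests were chosen with earlier results of these data known, so none is independent of them. Named genes were the members, the other 5 family genes and, per pathway list, up to 6 called genes with the smallest p and the 2 most abundant. All other pathway genes were named after their values were seen. Among them, Cd44, Bace2, Spry1 and Epha4 changed their call with a sample left out, and Socs5 and Dusp4 fell by adjusted p. Replicate numbers shared between the groups are not known to pair the samples. Deviations from the group means correlated at −0.180 to −0.042 (mean −0.099) for same-numbered samples and at −0.053 to 0.115 (mean 0.049) for other pairs. With 3 samples per group, whose deviations depend on each other, these values cannot decide whether the samples were paired. Exon lengths and 3′-UTRs came from GENCODE M21 (GRCm38), by symbol for 20284 genes and by older symbol for 1926. Apart from the position of the mature miRNA on GRCm38.p6, gene coordinates are not printed, since the processing notes name mm9.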

Additional observations from a re-analysis of the deposited data

How the results depend on the processing

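All 84 values of the 7 fitted members under the 12 refits kept their direction and moved by less than the spread between replicates. Of 180 such values for the named pathway genes and Egf, none changed direction, 177 kept their side of the adjusted p threshold, and 3 (Errfi1 and Egr1) lost it with a sample left out. The fold cutoff was also lost by Ptpn1 (−0.573 without miR-182-5p replicate 2) and Ier3 (0.582 without control replicate 2 and 0.584 without miR-182-5p replicate 1). Dropping the fold cutoff raised the calls from 977 to 6124 over all genes, from 3 to 5 among the members and from 6 to 57 in the pathway lists, because adjusted p alone then decides. With each sample left out, 902 to 1011 genes, 2 to 3 members and 5 to 8 pathway genes were called. The replicate block called 925 genes over all, 3 members and 6 pathway genes, and with it Nrg4 was at −0.86, Nrg1 at 0.70 and Hbegf at 0.83, so no call among the members differed. The numbers shared by the samples are not known to pair them. Nrg4, Nrg1, Ereg and Btc rest on at most 114 reads per library. Erbb3, Nrg2, Areg, Tgfa and Epgn had too few reads for a fit.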
